A study of Bos taurus with 96 samples.

Results

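Gene expression in longissimus dorsi muscle (LD) was compared between cattle that received supplement in the period directly after weaning and cattle that were on pasture only at that time. All LD arrays were used, which are 36 of the 96 arrays of the series, with 12 labelled supplement and 24 labelled pasture. Steers of 3 kinds, Hereford, Angus and the cross Wagyu x Angus, supplied 4 supplement and 8 pasture arrays each, and breed was a term of the comparison. The other 60 arrays are of fat depots. All groups share 259 feedlot days by label, at an age of about 26 months by the design text of the series. The study's methods state, however, that part of the LD samples came from an earlier kill that held both diets, and the age at that kill is not given in the sources used here. The LD was taken with its intramuscular fat in place, so each sample holds muscle fibres, adipocytes, vessels and connective tissue. The labels carry replicate numbers, which repeat within the pasture group of each breed. They do not say that each sample is a separate animal, so p-values measure the spread between samples.

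Intramuscular fat is the marbling of beef. Its adipocytes form within the connective tissue between muscle fibres, and once filled they make fatty acids from acetate and glucose with enzymes such as fatty acid synthase and store them as triacylglycerol in lipid droplets. Muscle fibres use fatty acids mainly as fuel, and their growth depends on capillaries and extracellular matrix built by neighbouring cells.

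Levels are log2 processed signal minus the 75th percentile of the same array, and a difference is supplement minus pasture on that scale at equal breed, so that a difference of 1 is a doubling. The label of the tissue was borne out by the data: the mean level of 12 genes of skeletal muscle fibres lay between 8.39 and 9.14 on the LD arrays and between -3.64 and -2.50 on the 12 arrays of subcutaneous rump fat (SC). Probes well above background made up 66.3% to 81.1% of the pasture arrays and 70.6% to 78.6% of the supplement arrays.

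The layout of the arrays limits what can be ascribed to diet. The 36 samples lie on 9 slides, and each of the 3 supplement slides holds 1 diet and 1 breed, so slide and diet cannot be told apart. The methods place supplement samples in the earlier kill and pasture samples in both kills, so kill is partly confounded with diet, and the labels do not say which pasture sample belongs to which kill. Each supplement slide was scanned on the same day as 4 pasture arrays of its breed, which gives 12 against 12 arrays on common days (slides 1 to 6), whereas the pasture slides 7, 8 and 9 were scanned on a day without supplement arrays of their breed. Values over these 12 against 12 arrays are called the same-day values and are given beside the main lists and leading genes. Scan days are batches in the files and are not known to match the kills. The array 75th percentiles, in log2 signal, ran from 8.52 to 9.41 in supplement, with a median of 8.58, and from 8.51 to 9.61 in pasture, with a median of 9.27, and the part of this brightness in the differences was not tested.

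The breed labels of pasture slides 8 and 9 also stand apart. For 22 probes chosen on the fat arrays because they differ between Hereford and Angus, the Hereford-minus-Angus score of slide 8, labelled Angus, ran from 0.70 to 1.48, against -1.27 to 0.04 on the other Angus slides. The score of slide 9, labelled Hereford, ran from -1.09 to -0.49, against 0.12 to 1.27 on the other Hereford arrays. A score over 74 probes, chosen on the fat arrays for a difference between Hereford and Wagyu x Angus, set slide 8 less apart. On that score slide 8 ran from 0.14 to 0.81 and overlapped with Angus slide 1, at -0.15 to 0.35, while slide 9 ran from -0.42 to 0.04, against 0.26 to 0.85 on the other Hereford arrays. Both slides were kept under their labels, and neither enters the same-day values. The mean level of the adipocyte markers described further on was 0.36 on slide 8 and 0.96 on Angus slide 2, and -0.83 on slide 9 and -0.92 on the Hereford arrays of slide 5.

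Over all 36 arrays 3850 of 34227 probes (11.2%) differed between the diets at an adjusted p under 0.05, with 1933 higher (5.65%) and 1917 lower (5.60%) in supplement (limma). The authors' own log2 table gave another split, with 321 higher and 5602 lower as deposited, where the median of all probes was -0.22, and 3843 higher and 1408 lower after the 75th percentile was subtracted. The same-day arrays gave 2454 probes (7.17%), and the arrays without slides 8 and 9 gave 4454, with 2255 higher (6.59%) and 2199 lower (6.42%). All 3850 kept their direction in both, but both sets reuse the 12 supplement arrays and part of the pasture arrays. Their direction is therefore no sign of stability, and 1538 and 2885 of them passed again, in that order. Within scan day 1, which holds 8 supplement and 8 pasture arrays of Hereford and Wagyu x Angus, 3969 probes passed, and within scan day 2, where the 4 supplement arrays are all Angus, 2093 did. Of the 3850, 3789 kept their direction within scan day 1, 3293 within scan day 2 and 3477 in the authors' table as deposited. With slide as a random block 1 probe was left (0.00292%), an unnamed one that was lower in supplement, while 2697 probes had an unadjusted p under 0.05. The same block over the same-day arrays left 360 probes (1.05%). Pasture slides of a breed also differed from each other, with 10330 probes (30.2%) between Angus slides 8 and 2, 8963 (26.2%) between Hereford slides 9 and 5 and 5765 (16.8%) between Wagyu x Angus slides 7 and 6, among which 8 and 9 are the slides whose breed labels stand apart. In the same fit the supplement slide differed from the pasture slide of its scan day by 4012 probes in Angus (11.7%), by 3376 in Hereford (9.86%) and in Wagyu x Angus by 743 higher (2.17%) and 967 lower (2.83%). It differed from slides 8, 9 and 7 by 11226 (32.8%), 13798 (40.3%) and 7980 (23.3%). No probe separated all 12 supplement arrays from all 24 pasture arrays.

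**Figure D1:**
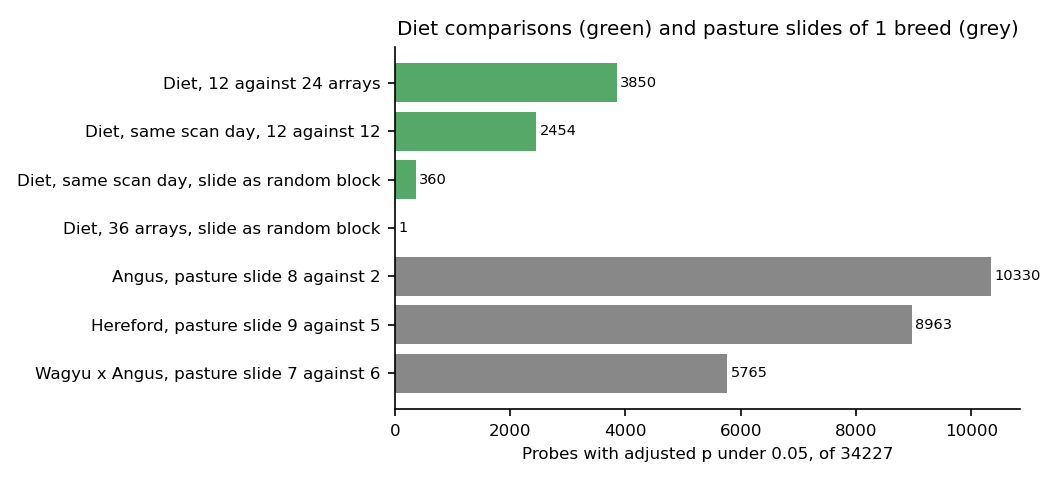
Bars give the number of probes with an adjusted p under 0.05 among 34227 for the diet comparison in green and for pairs of pasture slides of 1 breed in grey. The diet comparison gives 3850 probes over all arrays and 1 with slide as a random block, and the pairs of pasture slides give 5765 to 10330.

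Named genes numbered 10653, each read by the probe with the highest mean level, and 1356 of them (12.7%) passed the threshold, 623 higher (5.85%) and 733 lower (6.88%) in supplement. On the same-day arrays 8.08% of the genes passed, 3.82% higher and 4.26% lower. The median size of the differences over all arrays was 0.39, and 81 of them exceeded 1. The direction was the same as overall in 1308 of the 1356 within Hereford, in 1207 within Angus and in all 1356 within Wagyu x Angus. Among those well above background on at least 18 arrays, 765 had 1 direction in all breeds and against each pasture slide, and the 12 highest and 12 lowest of these are described in what follows. Of these 24 genes 16 passed on the same-day arrays, and ADIPOQ, TPPP2, B3GALT1, TMEM216, CTXN3, OTOR, TOP2A and RRM2 did not. With slide as a random block over all 36 arrays none of the 24 passed, nor did any other gene named here. Of the 24, OAS1X, PTHLH, EMX1, C9 and RNF43 were well above background on no more than 12 of 24 pasture or 6 of 12 supplement arrays and met the minimum of 18 with the help of the diet in which they are brighter, so their fitted differences are given as descriptions, without p-values.

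**Figure D2:**
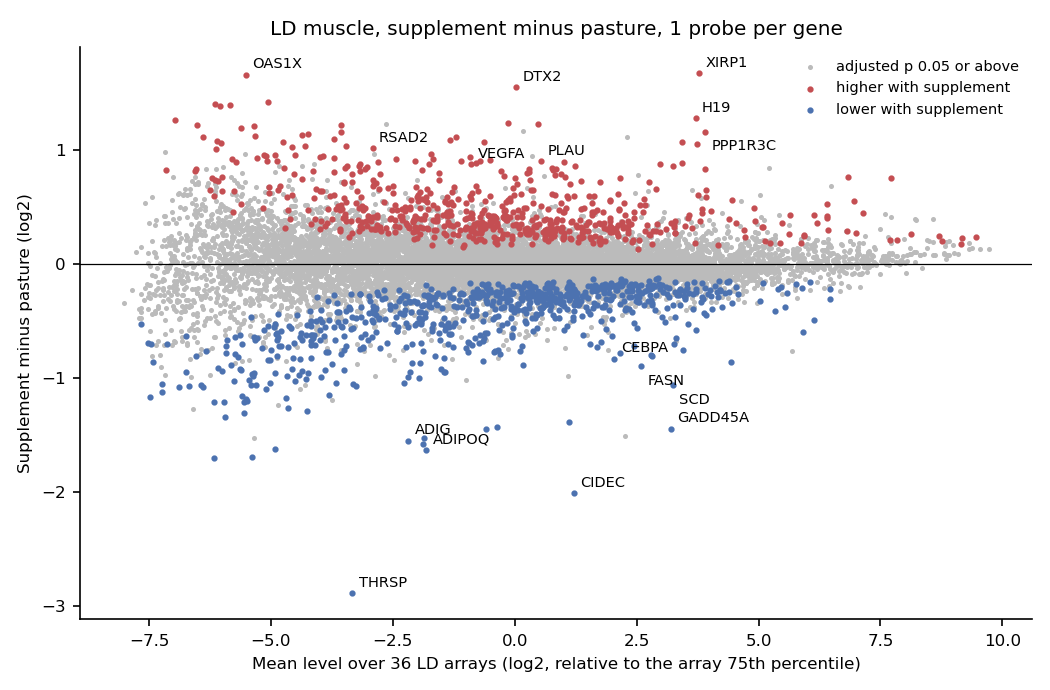
Each point is 1 of 10653 genes, with the mean level over 36 LD arrays on the x axis and supplement minus pasture on the y axis, both in log2. THRSP at -2.88 and CIDEC at -2.0 are the lowest labelled genes and XIRP1 at 1.67 is the highest.

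Of 18 measured adipocyte markers, 17 of them well above background on at least 18 arrays, 9 were lower in supplement muscle, against 6.88% of all genes, none was higher and 9 did not pass the test, with a median difference of -0.71 against -0.01 over all genes. With slide as a random block none passed over all 36 arrays and 2 passed on the same-day arrays. On the same-day arrays without that block 4 were lower and 1 was higher, with a median of -0.63, and without slides 8 and 9 the counts were 10 and 1. In Hereford 9 of the 18 were positive and 9 negative, with a median of -0.01, and the same-day medians were 0.06 in Hereford, 0.03 in Wagyu x Angus and -1.36 in Angus. Whether fewer adipocytes or less RNA per adipocyte underlies such a value cannot be told apart in these samples.

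The mean level of the 18 markers ran from -1.35 to -0.31 on the supplement arrays, with a median of -0.89, and from -1.20 to 1.34 on the pasture arrays, with a median of -0.04. Thus the supplement arrays lay at the low end of a wide pasture range. In Angus the diets did not overlap, at -1.19 to -0.74 in supplement and -0.13 to 1.22 in pasture. In Hereford they did, at -1.26 to -0.31 and -1.20 to 0.05, and the pasture arrays were as low as the supplement arrays. In Wagyu x Angus the supplement arrays, at -1.35 to -0.56, overlapped with the 3 pasture arrays on slide 6, at -1.0 to -0.35, but not with the 4 on slide 7, at 0.51 to 1.34. The SC arrays lay between 3.88 and 4.48, and the arrays of intramuscular fat between 1.53 and 3.80.

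THRSP, a nuclear protein that promotes fatty acid synthesis, had the lowest difference of the 24 genes. Its level ran from -6.13 to -4.30 in supplement, with a median of -5.35, and from -6.80 to 1.68 in pasture, with a median of -1.64. All 12 supplement arrays were below the pasture median, yet the diets overlapped through the Hereford and the same-day Wagyu x Angus pasture arrays. The difference was -2.88 ± 0.61 (SE), or 7.38-fold lower (adjusted p = 0.00264), with -2.46 same-day (adjusted p = 0.0138). It was well above background on 9 of 12 supplement and 19 of 24 pasture arrays. The 4 probes for THRSP ran from -2.88 to -1.59, and all 4 passed.

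ADIPOQ encodes the adipocyte hormone adiponectin. It ran from -5.20 to -1.49 in supplement, with a median of -2.80, and from -3.53 to 0.95 in pasture, with a median of -1.19. Every supplement array was below the pasture median. The difference of -1.63 ± 0.42 passed the test over all arrays (adjusted p = 0.0102) but not on the same-day arrays, where it was -1.37 (adjusted p = 0.0683).

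ADIG, known as adipogenin and made in adipocytes, held its difference more evenly across breeds. It ran from -4.74 to -2.10 in supplement, with a median of -2.89, and from -2.99 to -0.08 in pasture, with a median of -1.77. In each breed the 4 supplement arrays were all below the 8 pasture arrays. The difference was -1.55 ± 0.22 (adjusted p = 8.67e-05), at -1.72 in Hereford, -1.61 in Wagyu x Angus and -1.31 in Angus. It was -1.27 same-day (adjusted p = 0.00104) and passed there with slide as a random block (adjusted p = 0.016).

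Of 11 measured genes of lipid droplets and lipolysis 4 were lower, against 6.88% of all genes, with a list median of -0.18. The 4, CIDEC, PLIN1, CIDEA and G0S2, are also counted among the adipocyte markers. With slide as a random block none passed, and none of the 11 passed on the same-day arrays without it, where the median was -0.03. In Hereford 5 were positive and 6 negative, and the same-day medians were 0.01 in Hereford, 0.06 in Wagyu x Angus and -0.71 in Angus. CIDEC, which enlarges droplets, ran from -1.80 to 1.19 in supplement and from -1.37 to 4.92 in pasture, with medians of 0.15 and 2.33. Its difference was -2.0 ± 0.54 (adjusted p = 0.0148), and -1.49 same-day (adjusted p = 0.12). PLIN1, the perilipin of adipocyte droplets, differed by -1.58 (adjusted p = 0.00914), CIDEA by -0.43 (adjusted p = 0.0109) and G0S2, an inhibitor of adipose triglyceride lipase, by -0.76 (adjusted p = 0.0214). Of the 4 probes for CIDEA 1 passed. Within scan day 1 PLIN1 turned to 0.0032 and G0S2 to 0.0015. FABP4, the fatty acid carrier of adipocytes, was at -1.51 and missed the threshold (adjusted p = 0.0575).

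Of 17 measured genes of fatty acid synthesis 4 were lower and 1 was higher, against 6.88% and 5.85% of all genes, with the same counts on the same-day arrays and a list median of -0.22. With slide as a random block none passed over all 36 arrays and 1 passed on the same-day arrays. In Hereford 10 were positive and 7 negative, with a median of 0.08, against -0.63 in Angus and -0.33 in Wagyu x Angus. The Wagyu x Angus median turned to 0.04 on the same-day arrays, with 10 positive and 7 negative. THRSP stands on this list as well as on that of adipocytes. SCD, the desaturase that makes oleic acid, ran from 2.08 to 3.13 in supplement, with a median of 2.53, and from 2.27 to 4.71 in pasture, with a median of 3.57. The diets were apart in Angus and in Wagyu x Angus and overlapped in Hereford. SCD differed by -1.06 ± 0.20, or 2.09-fold (adjusted p = 0.000933), and by -0.97 same-day (adjusted p = 0.00507), where it also passed with slide as a random block (adjusted p = 0.041).

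FASN, the fatty acid synthase, ran from 1.62 to 2.25 in supplement and from 1.66 to 4.67 in pasture, with medians of 1.99 and 2.77. The supplement arrays were tightly grouped, with an SD of 0.18, against 0.92 in pasture. FASN differed by -0.90 ± 0.22 (adjusted p = 0.00799), and by -0.75 same-day (adjusted p = 0.0378). Of the 4 probes for FASN, which ran from -0.90 to -0.15, 2 passed. ELOVL6, which lengthens palmitate, differed by -1.05 (adjusted p = 0.032), and by -0.75 same-day (adjusted p = 0.18). Its 4 probes ran from -1.05 to -0.59, and 3 passed. FADS2 went the other way. This desaturase makes polyunsaturated fatty acids, and it ran from 0.39 to 1.09 in supplement and from -0.57 to 1.05 in pasture, with a difference of 0.65 ± 0.11 (adjusted p = 0.000455), and 0.52 same-day (adjusted p = 0.00939). All 12 supplement arrays were above the pasture median.

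**Figure D3:**
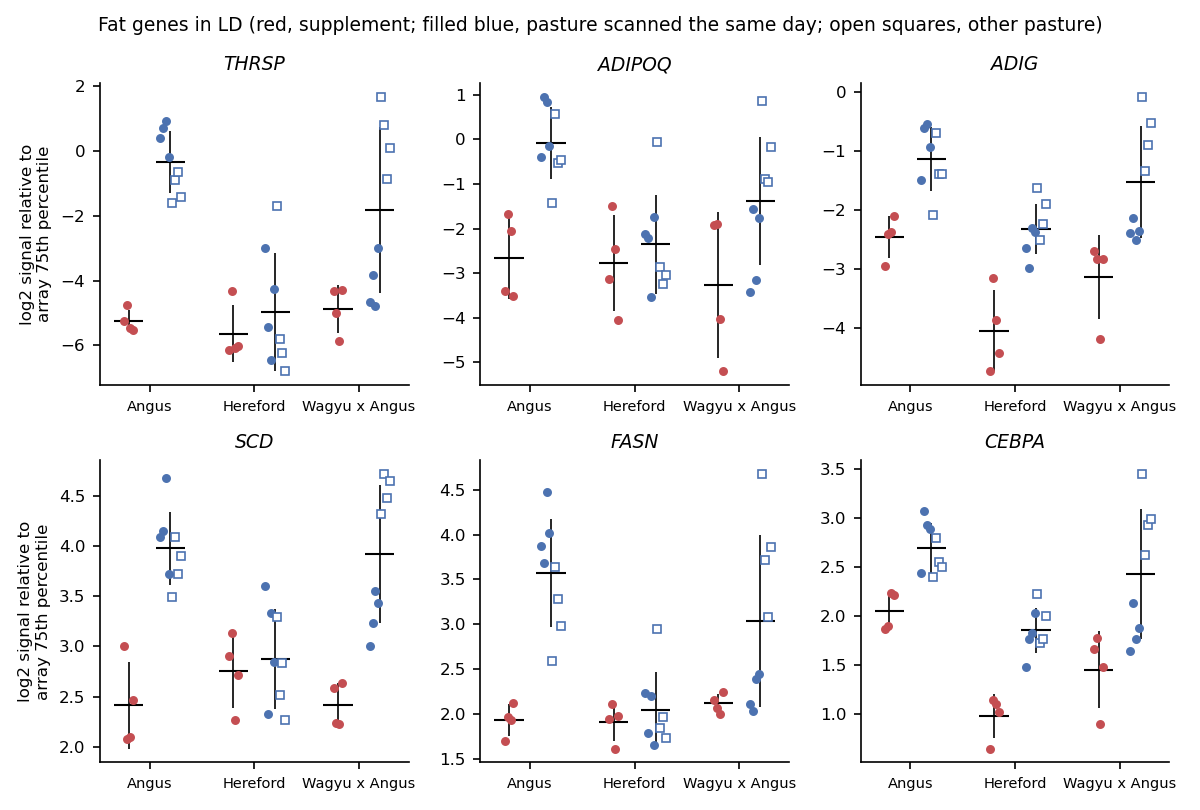
Levels of 6 genes of fat (log2, relative to the array 75th percentile) are shown for every LD array by breed, with supplement in red on the left of each pair and pasture in blue, where open squares are slides 7, 8 and 9. Horizontal lines are means and vertical lines 1 SD over 4 supplement or 8 pasture arrays. THRSP, SCD and FASN are apart between diets in Angus and overlap in Hereford, whereas ADIG is apart in each breed.

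CEBPA, a transcription factor of adipocyte differentiation, is named after its values were seen. It ran from 0.64 to 2.24 in supplement, with a median of 1.57, and from 1.47 to 3.45 in pasture, with a median of 2.31. In Angus the supplement arrays, at 1.86 to 2.24, were below all pasture arrays of that breed, and so were those in Hereford, at 0.64 to 1.14. The difference was -0.83 ± 0.13 (adjusted p = 0.00028), and -0.66 same-day (adjusted p = 0.00158). This rests on 1 of 2 probes, since the dimmer probe for the gene differed by 0.01.

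Of 29 measured genes of fatty acid uptake and oxidation 5 were lower, against 6.88% of all genes, and none was higher, with a median of -0.10. With slide as a random block none passed over all 36 arrays and 1, ACSL1, passed on the same-day arrays, where 2 were lower without that block. In Hereford 19 of the 29 were positive, with a median of 0.10, against -0.24 in Angus and -0.20 in Wagyu x Angus. Same-day medians were -0.11 in Angus and 0.03 in Wagyu x Angus, where 16 were positive and 13 negative. LPL, the lipase that frees fatty acids from blood lipoproteins, was at -0.72 (adjusted p = 0.00954) and at -0.44 same-day (adjusted p = 0.0384). LPL is also counted among the adipocyte markers. ACSL1, which activates fatty acids with coenzyme A, was at -0.38 (adjusted p = 0.0021) and at -0.36 same-day (adjusted p = 0.00188). PDK2, a kinase that restrains pyruvate oxidation, was at -0.31 (adjusted p = 0.0163), although a further probe for it was at 0.09. SLC25A20, the carnitine carrier of mitochondria, was at -0.19 (adjusted p = 0.0227), and neither PDK2 nor SLC25A20 passed same-day. None of 11 genes of triacylglycerol synthesis passed by the probe of highest mean level, with a median of -0.12. Of the 3 probes for DGAT2, a gene of this list, 2 passed, and all 3 were lower, at -0.95 to -0.59. Of 17 genes of cholesterol synthesis 1 was lower, against 6.88% of all genes, FDFT1 at -0.52 (adjusted p = 0.0146). FDFT1 missed the threshold on the same-day arrays (adjusted p = 0.18) and without slides 8 and 9 (adjusted p = 0.0564).

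Of 11 measured markers of endothelial cells 7 were higher in supplement muscle and none was lower, against 5.85% of all genes higher, and the median difference was 0.37. None passed with slide as a random block, over all 36 arrays or on the same-day arrays. On the same-day arrays without that block 4 were higher, with a median of 0.36. The mean level of the list ran from 0.22 to 0.94 in supplement and from -0.25 to 0.84 in pasture.

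CDH5, the cadherin of endothelial junctions, ran from 0.86 to 1.67 in supplement, with a median of 1.36, and from 0.01 to 1.70 in pasture, with a median of 0.74. All 12 supplement arrays were above the pasture median. It differed by 0.54 ± 0.09 (adjusted p = 0.000557), and by 0.53 same-day (adjusted p = 0.00599). KDR, the main receptor for vascular endothelial growth factor, differed by 0.55 (adjusted p = 0.00108), ESAM, an endothelial adhesion molecule, by 0.47 (adjusted p = 0.00171) and CLDN5, a tight junction protein, by 0.43 (adjusted p = 0.00662). Their same-day values were 0.42, 0.45 and 0.41, and CLDN5 missed the threshold (adjusted p = 0.0528).

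PCDH12, a protocadherin of endothelium and 1 of the 12 highest genes, ran from -1.16 to 1.5 in supplement and from -2.13 to 0.85 in pasture, with medians of 0.79 and -0.45. It differed by 1.23 ± 0.22 (adjusted p = 0.000751), and by 1.0 same-day (adjusted p = 0.00863). VEGFA, the growth factor that acts through KDR, is named after its values were seen. It ran from -0.86 to 0.72 in supplement, with a median of -0.39, and from -2.36 to -0.54 in pasture, with a median of -1.02. Of the 12 supplement arrays 9 were above every pasture array. VEGFA differed by 0.88 ± 0.14, or 1.84-fold (adjusted p = 0.000233), and by 0.73 same-day (adjusted p = 0.00351).

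Collagen and matrix genes had 9 higher and none lower of 27 measured, against 5.85% of all genes higher, with a median of 0.24. No member passed with slide as a random block, over all 36 or over the same-day arrays. On the same-day arrays without that block 1 of them, COL4A1, was higher, with a median of 0.22, and the medians there were 0.41 in Hereford, 0.35 in Wagyu x Angus and -0.04 in Angus. COL1A1, a chain of fibrillar collagen, ran from 2.99 to 4.89 in supplement and from 1.84 to 4.36 in pasture, with a difference of 0.88 ± 0.21 (adjusted p = 0.00673), and its partner COL1A2 differed by 0.83 (adjusted p = 0.00374). Of 5 probes for COL1A1, 4 were higher and 1 lower. COL4A1 and COL4A2, the chains of basement membrane collagen, differed by 0.47 (adjusted p = 0.00278) and 0.62 (adjusted p = 0.0013). Same-day values were 0.54 for COL1A1, 0.59 for COL1A2, 0.41 for COL4A1 and 0.43 for COL4A2. Tendon markers had a median of 0.53 with none of 6 past the threshold, although 1 of 3 probes for MKX passed. The mean level of the tendon markers ran from -1.66 to 0.58 in supplement and from -2.57 to -0.52 in pasture. Their part in the collagen values was not tested.

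PLAU, the urokinase that activates plasminogen at the cell surface, is named after its values were seen. It ran from 0.61 to 2.56 in supplement and from -0.38 to 0.89 in pasture, with medians of 0.94 and 0.30. Of the 12 supplement arrays 7 were above every pasture array. PLAU differed by 0.90 ± 0.12 (adjusted p = 6.21e-05), and by 0.88 same-day (adjusted p = 0.00255). HBEGF, a membrane-bound growth factor of the epidermal family, ran from -4.17 to -0.96 in supplement and from -5.30 to -2.84 in pasture. It differed by 1.22 ± 0.23 (adjusted p = 0.000922), and by 1.0 same-day (adjusted p = 0.0183), and 7 supplement arrays were above every pasture array.

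Of 21 measured genes that interferon induces 10 were higher in supplement muscle, against 5.85% of all genes, and 1 was lower, with a median of 0.59. None of them passed with slide as a random block, over all 36 or over the same-day arrays. On the same-day arrays without that block 7 were higher and 1 was lower, with a median of 0.47. OAS1X, an oligoadenylate synthetase, is among the 12 highest genes. It ran from -6.82 to -2.86 in supplement, with a median of -4.44, and from -8.23 to -2.68 in pasture, with a median of -6.05. It was well above background on 11 of 12 supplement but 7 of 24 pasture arrays, so its pasture level is mostly one of background, and its fitted difference was 1.66.

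RSAD2, an antiviral enzyme also called viperin, ran from -3.45 to -0.71 in supplement, with a median of -2.18, and from -5.11 to -1.79 in pasture, with a median of -2.90. It differed by 1.01 ± 0.20 (adjusted p = 0.00125), and by 0.92 same-day (adjusted p = 0.0141). ISG15, a ubiquitin-like protein, differed by 1.09 (adjusted p = 0.0055), MX1, an antiviral GTPase, by 1.07 (adjusted p = 0.0077), HERC6 by 0.79 (adjusted p = 0.00147) and XAF1 by 0.63 (adjusted p = 0.00535), and these 4 were at 1.16, 1.03, 0.80 and 0.68 same-day and passed there. MX2, a GTPase related to MX1, was the member that was lower. It was dim, at a median of -5.24 in supplement and -4.27 in pasture, and it differed by -1.17 (adjusted p = 0.00166) and by -1.07 same-day (adjusted p = 0.0174), with 0.01 in Angus and -2.45 in Hereford.

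Of 12 genes of antigen presentation 4 were higher, against 5.85% of all genes, and none lower, with a median of 0.30. No member passed with slide as a random block, over all 36 or over the same-day arrays. The 4 were the immunoproteasome subunits PSMB8 at 0.51 (adjusted p = 0.00125), PSMB9 at 0.39 (adjusted p = 0.0129) and PSMB10 at 0.38 (adjusted p = 0.00444), and the invariant chain CD74 at 0.58 (adjusted p = 0.019), which was at 0.37 same-day and missed the threshold (adjusted p = 0.15). No macrophage marker of 10 passed the test, and their mean level ran from -1.69 to -0.73 in supplement and from -1.84 to -0.23 in pasture. Of 10 lymphocyte markers 1, CD2 of T cells, was lower, at -0.37 (adjusted p = 0.022), against 6.88% of all genes lower. The part of immune cells in these values was not tested.

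**Figure D4:**
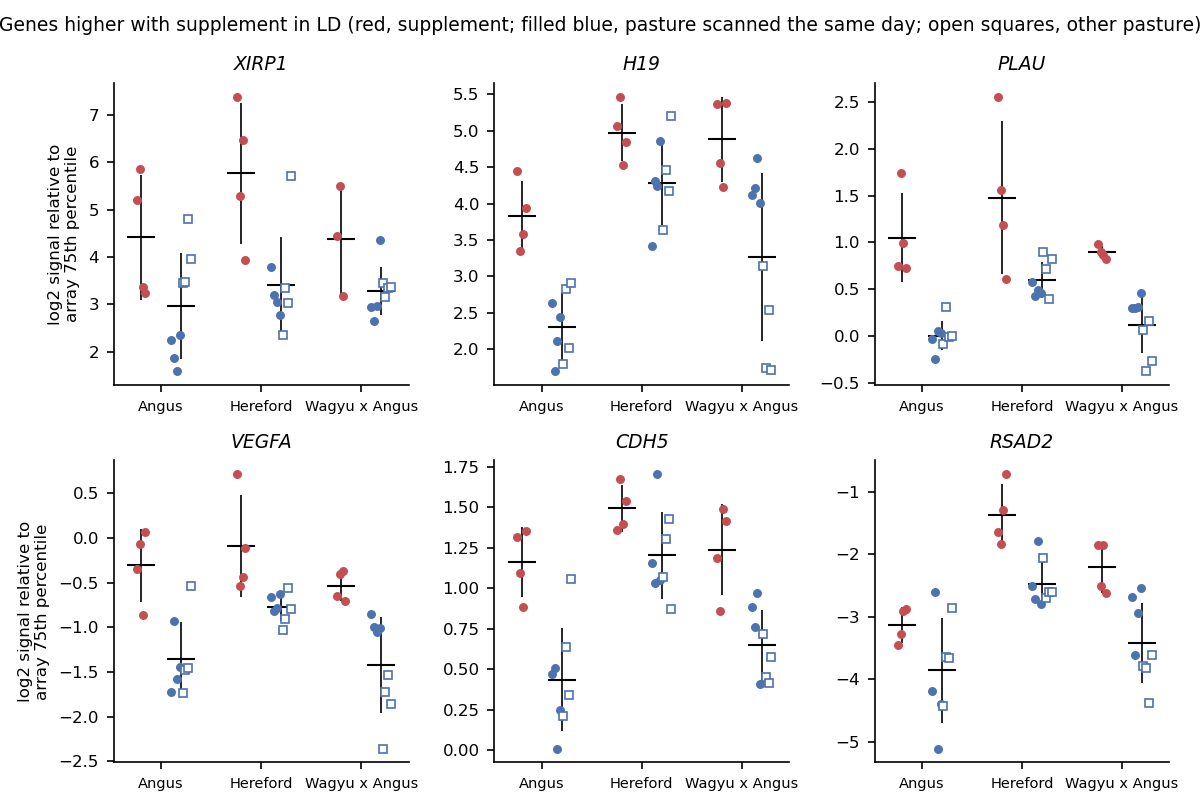
Levels of 6 genes (log2, relative to the array 75th percentile) are shown for every LD array by breed, with supplement in red and pasture in blue, where open squares are slides 7, 8 and 9. Horizontal lines are means and vertical lines 1 SD over 4 supplement or 8 pasture arrays. PLAU and VEGFA are higher in supplement in each breed, by 0.78 to 1.05 and by 0.68 to 1.05.

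Single genes of the muscle fibre were also higher. XIRP1, an actin-binding protein of muscle attachment sites, had the highest difference of the 24 genes. It ran from 3.18 to 7.39 in supplement, with a median of 5.21, and from 1.58 to 5.71 in pasture, with a median of 3.18. The supplement arrays spread widely, with 3 above every pasture array and 10 above the pasture median. XIRP1 differed by 1.67 ± 0.37 (adjusted p = 0.00377), and by 2.08 same-day (adjusted p = 0.00404).

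Of 17 measured myogenic regulators 3 were higher and 1 was lower, against 5.85% and 6.88% of all genes, with a median of 0.11. No member passed with slide as a random block, over all 36 or over the same-day arrays, and on the latter without that block ANKRD1 alone passed, at 0.75. ANKRD1, a titin-associated repressor induced by stretch, differed by 0.75 (adjusted p = 0.00683), CSRP3, a LIM protein of the Z-disc, by 0.76 (adjusted p = 0.0342) and MEF2C, a transcription factor of muscle genes, by 0.70 (adjusted p = 0.00336). FST, which encodes the myostatin antagonist follistatin, was at -0.50 (adjusted p = 0.0387). MYOD1 at 0.06, MYF5 at 0.09 and MYOG at 0.33 did not pass. PPP1R3C, a subunit that directs protein phosphatase to glycogen, ran from 3.13 to 5.92 in supplement and from 1.49 to 5.03 in pasture, and differed by 1.16 ± 0.26 (adjusted p = 0.00411), with 1.01 same-day (adjusted p = 0.0183).

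H19, a noncoding RNA made from an imprinted locus and abundant in growing muscle, ran from 3.35 to 5.45 in supplement, with a median of 4.54, and from 1.70 to 5.20 in pasture, with a median of 3.28. All 12 supplement arrays were above the pasture median. H19 differed by 1.28 ± 0.25, or 2.42-fold (adjusted p = 0.00123), and by 1.01 same-day (adjusted p = 0.00411). IGF2, the growth factor gene beside it, differed by 0.42 (adjusted p = 0.0031), and by 0.42 same-day (adjusted p = 0.0105). SOCS2, an inhibitor of growth hormone signalling, was at 0.89 (adjusted p = 0.0351), and at 0.80 same-day (adjusted p = 0.0705). These last 2 were the ones to pass among 17 measured genes of the insulin and growth factor axis, against 5.85% of all genes higher.

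Of 12 myofibre markers 3 (25%) were higher, against 5.85% of all genes, and none passed with slide as a random block. All 12 had a positive difference over the 3 breeds together, with 7 positive and 5 negative in Angus. The 3 higher ones were ACTA1 at 0.23, CKM at 0.20 and NEB at 0.21 (adjusted p = 0.0498, 0.044 and 0.0226), with a list median of 0.14, and none passed on the same-day arrays. All 3 turned to between -0.09 and -0.07 in the authors' table as deposited. Slow and fast fibre genes had 1 higher each, TNNC1 of 9 at 0.18 (adjusted p = 0.0413) and ACTN3 of 13 at 0.44 (adjusted p = 0.0208), but TNNC1 was at -0.01 after quantile normalization. Glycolysis had 3 of 21 higher, against 5.85% of all genes, LDHA at 0.26, GAPDH at 0.23 and PGK1 at 0.42. None of the 21 passed on the same-day arrays, and LDHA and GAPDH turned to -0.0253 and -0.064 in the authors' table as deposited. The respiratory chain had 2 of 80 higher with a median of 0.03, and the cytosolic ribosome had 0 of 78 in either direction with a median of 0.03. Without slides 8 and 9 the higher ones were 7 of 80 and 8 of 78, against 6.59% of all probes higher. Ribosome genes were positive in 66 of 78 in Angus and negative in 61 of 78 in Hereford, but on the same-day arrays, which leave out slides 8 and 9, 66 were positive in Angus and 48 in Hereford. None of 23 genes of protein breakdown passed, with a median of -0.11. FBXO21, a ubiquitin ligase subunit named after its values were seen, was at -0.34 over all arrays (adjusted p = 0.0841), at -0.64 same-day (adjusted p = 0.00104), where it also passed with slide as a random block (adjusted p = 0.0106), and at -0.59 without slides 8 and 9 (adjusted p = 0.000405).

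**Figure D5:**
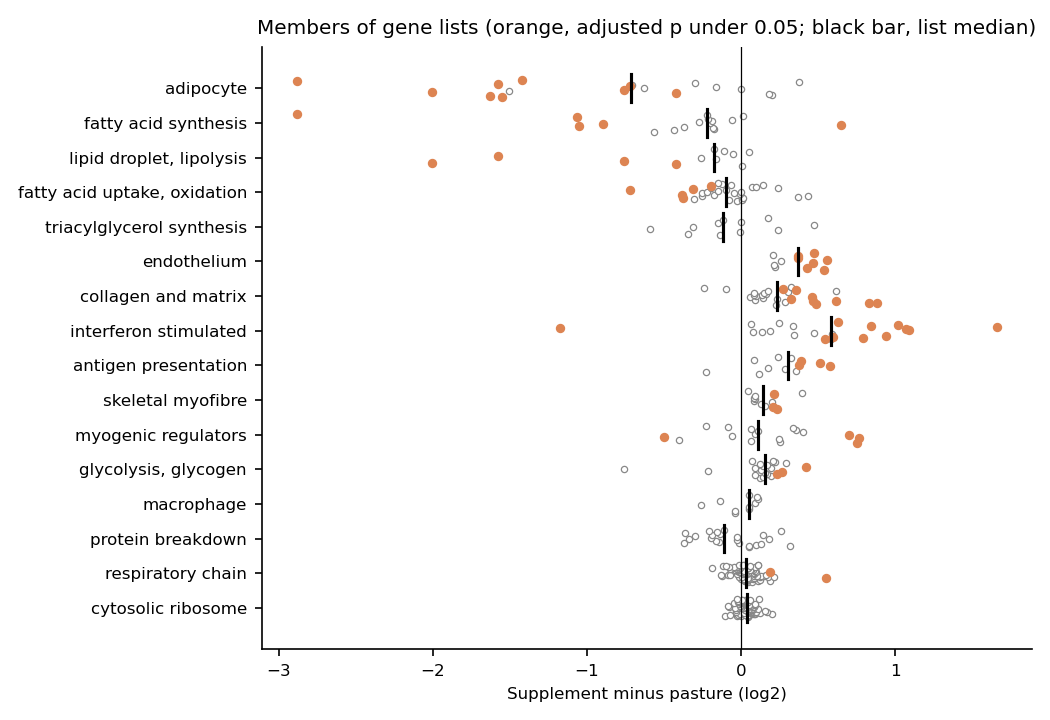
Each point is a gene of the list named on the y axis, at its supplement minus pasture difference in log2 on the x axis, filled orange where the adjusted p is under 0.05, and the black bar is the list median. Adipocyte genes lie lowest with a median of -0.71, and interferon-stimulated genes highest with a median of 0.59.

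Immediate early genes had 2 of 22 higher, JUND at 0.71 and IER3 at 0.83, heat shock genes had 2 of 22 higher, HSPB7 at 0.80 and DNAJB5 at 0.65, and clock genes had 2 of 12 higher, PER2 at 1.22 and BHLHE40 at 0.76, against 5.85% of all genes higher. Heat shock genes were negative in 19 of 22 in Angus and positive in 20 of 22 in Hereford, and on the same-day arrays negative in 18 in Angus and positive in all 22 in Hereford. Neither heat shock gene and neither clock gene passed on the same-day arrays, and PER2 turned to -0.0707 within scan day 1. NPAS2, a further clock gene, was lower on the same-day arrays, at -0.34 (adjusted p = 0.0171), but at -0.11 over all arrays. A further probe for NPAS2 was at 0.67 over all arrays. Antioxidant genes had 1 higher and 3 lower of 24, against 5.85% and 6.88% of all genes, and 1 of each on the same-day arrays, with HMOX1 at -0.80, CAT at -0.29 and PRDX6 at -0.25 lower over all arrays. TXNRD1 was the higher one at 0.20, but its probes disagreed, at -0.32 and 0.20. Calcium handling had 1 higher and 1 lower of 19, against 5.85% and 6.88% of all genes. The lower one, CACNB1, a subunit of the muscle calcium channel, ran from 1.84 to 2.58 in supplement and from 2.21 to 3.09 in pasture, with a difference of -0.56 ± 0.07 (adjusted p = 6.09e-05). It passed on the same-day arrays with slide as a random block (adjusted p = 0.022), although a further probe for it was at 0.01. CAMK2A was the higher one, at 0.47.

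Amino acid metabolism had 1 higher and 2 lower of 25, against 5.85% and 6.88% of all genes, AMD1 at 0.53, BCKDHA at -0.22 and TDH. TDH was not well above background on any supplement array and was so on 4 of 24 pasture arrays, so no fold is given. Mitochondrial ribosome genes had 2 higher and 5 lower of 75, against 5.85% and 6.88% of all genes, with 1 higher and 1 lower on the same-day arrays. The proteasome had 3 higher and 1 lower of 38, against 5.85% and 6.88% of all genes, where the 3 higher were the immunoproteasome subunits. Smooth muscle markers had 0 of 8 past the threshold and erythroid genes 1 of 5, EPB42 at -0.54, whose other probe was at -0.04. Schwann cell markers had 1 of 7, PMP22 at 0.43, and 12.7% of all genes passed.

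The remaining genes of the 12 lowest were GADD45A, a growth arrest gene, and 8 others. GADD45A ran from 1.21 to 3.32 in supplement and from 2.05 to 4.93 in pasture, with a difference of -1.44 ± 0.25 (adjusted p = 0.000492), and -1.34 same-day (adjusted p = 0.00692). All 12 supplement arrays were below the pasture median. ZNF750, a transcription factor known from epidermis, differed by -1.39 (adjusted p = 0.00145), and by -1.28 same-day (adjusted p = 0.0119). Its mean level was -6.86 in SC and 1.57 in pasture LD. EMX1, a homeobox gene, had a fitted difference of -1.20. Its signal was dim, well above background on 5 of 12 supplement and 22 of 24 pasture arrays, so its supplement level is mostly one of background. TPPP2, B3GALT1, TMEM216, C9, RNF43 and CTXN3 differed by -1.15 to -1.0, with pasture medians of -5.40 to -1.67, and the probes for C9 disagreed in direction. C9 was well above background on 4 and RNF43 on 6 of the 12 supplement arrays.

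The remaining genes of the 12 highest included 3 that dividing cells express, a grouping made after the values were seen. TOP2A, the topoisomerase of mitosis, differed by 1.14 (adjusted p = 0.0155), RRM2, a subunit of ribonucleotide reductase, by 1.21 (adjusted p = 0.0272) and SHCBP1, a protein of the cleavage furrow, by 1.42 (adjusted p = 0.000933). They were well above background on 18, 14 and 15 of the 24 pasture arrays, in that order, and on the same-day arrays SHCBP1 passed at 1.37 (adjusted p = 0.00451) while TOP2A at 0.69 and RRM2 at 0.58 did not. DTX2, a ubiquitin ligase of the Notch pathway, ran from -0.50 to 2.99 in supplement and from -1.35 to 1.29 in pasture, with a difference of 1.55 ± 0.26 (adjusted p = 0.000405) and 1.25 same-day (adjusted p = 0.0034), but its dimmer probe was at -0.06. OTOR differed by 1.16 (adjusted p = 0.00769), and by 0.76 same-day (adjusted p = 0.0772). PTHLH, which encodes parathyroid hormone-related protein, had a fitted difference of 1.19 and was well above background on 12 of 12 supplement but 11 of 24 pasture arrays.

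Some genes also held where slide was a random block on the same-day arrays. They numbered 79 of those that passed over all 36 arrays and on the same-day arrays, and 36 were higher and 43 lower. Each slide there holds 1 diet, and the estimated correlation of arrays on a slide was 0.15, against 0.43 over all 36 arrays. Of the lists, 2 of 18 adipocyte markers passed that fit, ADIG and PCK1, both lower, and none of the endothelial, collagen, interferon-stimulated or antigen presentation genes did. Of the 24 genes above ADIG, H19 and DTX2 are among them, and so is EMX1, whose supplement level is mostly one of background. The differences and p-values given next are of the fit over all 36 arrays without that block. The 8 highest and the 8 lowest of the 79, chosen after their values were seen, include CD93, a glycoprotein of endothelium, at 0.72 (adjusted p = 0.000287), EPCAM, an adhesion molecule of epithelium, at 0.83 (adjusted p = 0.000233), CKAP2, a spindle protein, at 1.02 (adjusted p = 0.000266) and PARP12 at 0.79 (adjusted p = 0.00944). On the lower side they include ITIH1 at -0.99 (adjusted p = 7.17e-05), PRR15L at -1.05 (adjusted p = 0.00064), OR10AC1, well above background on 6 of 12 supplement arrays, at -1.26 and MZB1, a chaperone of plasma cells, at -0.85 (adjusted p = 6.09e-05). MZB1 ran from -2.03 to -0.39 in supplement and from -1.08 to 0.15 in pasture.

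Within breeds 5685 probes passed in Hereford (16.6%), 3107 in Angus (9.08%) and 1472 in Wagyu x Angus (4.30%), and 2292, 2796 and 1287 on the same-day arrays. Leaving out 1 array gave 2114 to 6749 in Hereford, 1441 to 3730 in Angus and 676 to 1750 in Wagyu x Angus, so the counts give no firm order of breeds. The dependence on breed itself was past the threshold for 5539 probes (16.2%), for 3331 on the same-day arrays and for 1900 without slides 8 and 9. THRSP differed by -0.69 in Hereford, -4.91 in Angus and -3.05 in Wagyu x Angus, and SCD by -0.12, -1.56 and -1.5. The dependence on breed passed for SCD (adjusted p = 0.018) and not for THRSP (adjusted p = 0.07), and without slides 8 and 9 it passed for neither (adjusted p = 0.11 and 0.12).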

How the data were processed

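Total RNA of each sample was hybridised to a 4x44K one colour Agilent bovine array. For each array the authors deposited scanner output of Feature Extraction 10.7.3.1, in which the processed signal is an intensity with background subtracted. They also deposited a table of log2 values for 34227 probes, which chose the probes tested. The main values were the processed signals in log2, from which the 75th percentile over the 43653 probes that are not controls was taken off per array. Spots flagged as outliers were left out (2 to 95 per array), spots of a probe were averaged, and no spot was saturated. Array 75th percentiles ran from 8.51 to 9.61 and followed the scan day. The number of arrays limits the precision.

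Of the probes 21445 (62.7%) were named, 19903 through RefSeq accessions and the others through tables of the paper. The diets were compared with limma 3.58.1 in R 4.3.3 (lmFit and eBayes, breed plus diet, 36 arrays), adjusted by Benjamini-Hochberg over all probes. Python 3.11.15, pandas 2.3.3 and matplotlib 3.10.9 served for tables and figures. A gene was read by its probe of highest mean level. Named genes are the 12 highest and the 12 lowest, up to 4 of lowest p per list, any whose diets did not overlap, and others where said. The method was tested on simulated data. The comparison, the gene lists and the rule were chosen with earlier results of these data known.

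Alternatives were other normalizations and background corrections, the authors' table, other probe sets, the methods' t-test, no breed term, blocks of slide, of scan day or of replicate number, and arrays, slides or breeds left out. Arrays of the same scan day, the other pasture arrays and the sets without slides 8 and 9 were added after seeing the data. Normexp used the median spot signal. Normalisation by mixed models was not repeated. The retinoid list is not reported here.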

Additional observations from a re-analysis of the deposited data

Results flagged for a closer look

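In 13 of 167 groups of breed and diet examined for the 24 genes and 4 list levels, 1 array lay far from the rest of its group. Chance flags about 1 in 20 groups. XIRP1 in Hereford pasture was highest on 1 array of slide 9, at 5.71 with the next at 3.80. THRSP in Hereford supplement was highest on 1 array at -4.32 (next -6.03). PTHLH was highest in Angus supplement at -4.60 and lowest in Hereford supplement at -5.34. RRM2 was lowest in Angus supplement at -7.34, ADIG in Wagyu x Angus supplement at -4.20, EMX1 in Hereford supplement at -7.53, RNF43 in Hereford supplement at -8.01 and CTXN3 in Wagyu x Angus supplement at -3.55. In pasture, B3GALT1 was lowest on a Hereford array at -4.18 and TMEM216 on a Wagyu x Angus array at -5.34, and EMX1 was highest on a Wagyu x Angus array of slide 7 at -3.68. The mean level of interferon-stimulated genes was highest on 1 Angus pasture array of slide 2, at -1.90 with the next at -2.61.

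DTX2 was the 1 of the 24 genes whose difference depended on breed, at 0.29 in Hereford, 2.26 in Angus and 2.10 in Wagyu x Angus (limma, adjusted p = 0.0153), and without slides 8 and 9 the adjusted p was 0.0792.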

How the results depend on the processing

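The 3850 probes that differed between diets became 1108 of 30026 with normexp, 5923 in the authors' table as deposited, 2413 with the methods' t-test, 2463 with no breed term, 2306 with scan day as a block, 2093 within scan day 2 and 1 with slide as a random block. They became 5903 without Angus, 586 without Wagyu x Angus and 1850 without pasture slide 7. Of the settings added after seeing the data, the same-day arrays gave 2454, pasture arrays of other days 5866, slide as a random block on the same-day arrays 360 and the same block without slides 8 and 9 gave 267. Leaving out 1 array in turn gave 2843 to 4707. Within breeds, leaving out 1 array gave 1441 to 3730 in Angus, 2114 to 6749 in Hereford and 676 to 1750 in Wagyu x Angus, against 3107, 5685 and 1472. In Angus supplement replicates 1, 2 and 3 moved the count by more than 1.5 times, to 1441, 1517 and 1836. In Hereford supplement replicates 1, 2 and 3 did so, to 2114, 3493 and 3527, and in Wagyu x Angus supplement replicates 3 and 4, to 919 and 676. The same-day arrays gave 2292 in Hereford, and the dependence on breed fell to 3331 probes there and to 1900 without slides 8 and 9. The cause was not tested.

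The replicate numbers do not pair the samples, since deviations of samples with the same number had a mean correlation of 0.02, with a lowest of -0.27. The replicate block gave 3622 probes, and 2956, 5791 and 1337 within the 3 breeds.

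The 24 genes named as highest or lowest were chosen for 1 direction in all breeds and against each pasture slide, so their direction is no sign of stability. With normexp 16 of them were tested and 9 passed, with scan day as a block 16 passed, on the same-day arrays 16, without slides 8 and 9 20, and with slide as a random block 0. Of the other genes, directions turned in the authors' table as deposited for ACTA1 (-0.0714), CKM (-0.0878), GAPDH (-0.064), LDHA (-0.0253), MRPL14 (-0.12), MRPS31 (-0.0132), NDUFB10 (-0.13), NEB (-0.0738), TNNC1 (-0.16) and TXNRD1 (-0.0948), within scan day 1 for G0S2 (0.0015), PER2 (-0.0707), PLIN1 (0.0032) and RBP4 (0.23), with normexp for TDH (0.025), with quantile normalization for TNNC1 (-0.0051) and with the median over probes for TXNRD1 (-0.061). None of these was past the threshold there.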
